A study of Mus musculus with 25 samples.

Results

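PIWI-interacting RNAs (piRNAs) were one class of small RNA in the hypothalamus of mice whose dams, or who themselves, ate a hypercaloric diet. They were taken as all entries of the deposited tables whose assay number marks a mouse sequence and whose name is not that of a miRNA. This rule used no measured value and gave 103 of the 1721 entries in each of 3 tables. The other 1618 entries are miRNAs.

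Small RNA of C57BL/6J wild-type mice aged 3 months was sequenced with QIAseq miRNA libraries, which tag each captured molecule with a unique molecular identifier (UMI). The regular diet (RD) was set against a high-sucrose hypercaloric diet (HCD) with 52% fat. Dams were put on either food 1 month ahead of mating and kept on it until lactation ended, and the pups ate RD or HCD after weaning. Groups carry the dam's diet first and the offspring's second, so the HCD-RD group was exposed to HCD through the dam alone, RD-HCD through its own food alone, and HCD-HCD through both. RD-RD was the control of each sex, with 4 male and 3 female libraries, and each of the other 6 groups had 3. The labels name no animal, dam or litter for a library, so a p-value here measures the spread between libraries, which may be technical, and 1 dam may stand behind several libraries. The comparisons address how the hypothalamic small RNA of each sex differs with what the dam, the offspring or both had eaten. In bulk tissue, fewer cells of a type and less RNA per cell cannot be told apart.

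piRNAs are best known from the germ line, where they guide PIWI proteins to silence transposable elements and, in the testis, other transcripts. They are made from long single-stranded precursors without the enzyme Dicer, are usually longer than miRNAs, and many come from dense genomic clusters. A piRNA name in a database is given to a sequence, often one first read in testis, so a read with that name in brain is not by itself a read of PIWI-bound RNA.

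Each name in the deposited tables holds a piRNA number, a chromosome, a start, an end and a strand. The length between start and end was 19 to 32 nt, with a median of 28 nt. Of the 103 entries, 87 were 26 to 32 nt long and 16 were 19 to 25 nt. The entries carried 66 different piRNA names. Of these, 57 stood at 1 locus each, and 9 names stood at several loci and accounted for 46 entries. Loci of 1 name share a sequence name and can share reads, so they are not independent measurements. The coordinates are given here as the names hold them, and no source used here gives their genome build. The loci of piR_000691 show that it is not mm10, the build in the submitters' processing notes, so no gene annotation was read from them. The piRNA sequences themselves were not used here.

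The tables give 1 fold and 1 unadjusted DESeq2 p-value per entry and comparison, each group against RD-RD of the same sex, and no value per library was used here. A fold below 1 means less of the RNA than in RD-RD. The depth per library is unknown. A remark deposited beside a fold tells how abundant the entry was. Remark A marks a mean UMI count below 10 in one group and above 10 in the other, remark B a mean below 10 in both groups, and remark C a count of 0 in both. For 2 piRNA entries, the remarks of the male comparisons contradict each other on the level in the RD-RD libraries they share. In the authors' deposited tables, 51, 51 and 58 of the 103 piRNA entries had no remark in HCD-HCD, HCD-RD and RD-HCD males, and 41, 49 and 52 had none in the same groups of females. In all 6 comparisons, 38 piRNA entries under 24 names had no remark, which is 36.9% of the piRNA entries, beside 38.8% of all entries. At the other end, 30 piRNA entries had remark B or C in every comparison, and 3 had remark C in every one. The hypothalamus thus held roughly as large a share of these piRNA entries at a mean of 10 UMIs or more as of all entries together. Of the 16 short entries 8 had no remark in any comparison, and of the 87 longer ones 30.

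**Figure D1:**
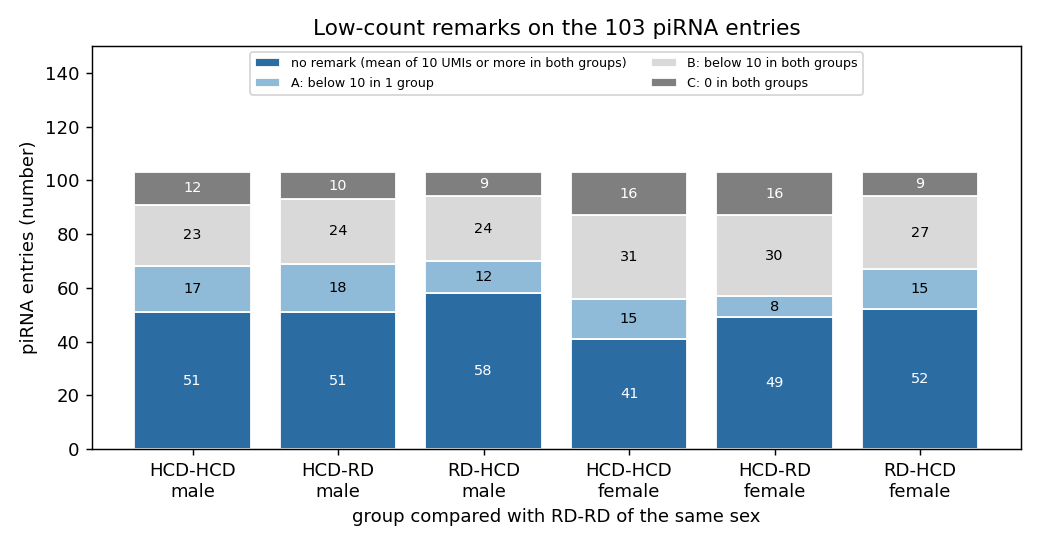
Number of piRNA entries (vertical axis, 103 per bar) by low-count remark in each of the 6 comparisons with RD-RD of the same sex. The part without a remark runs from 41 entries in HCD-HCD females to 58 in RD-HCD males, and remark C, a count of 0 in both groups, from 9 to 16 entries.

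The tissue and signs of germ cells were checked on marker miRNAs. All 7 of 7 neural miRNAs had no remark in any comparison. Of 10 miRNAs of an X-linked cluster known from testis and germ cells, 8 were in the tables, and at most 1 of 8 had no remark in any 1 comparison. In HCD-HCD and HCD-RD females, 4 of those 8 had a count of 0 in both groups, and in HCD-HCD males 1 of the 8 was lower at a Benjamini-Hochberg adjusted DESeq2 p under 0.05. The 3 erythrocyte miRNAs and 4 leukocyte and microglial miRNAs had no remark anywhere. In HCD-HCD and in HCD-RD males, 2 of the 4 leukocyte and microglial miRNAs were lower at a Benjamini-Hochberg adjusted DESeq2 p under 0.05, with folds of the 4 from 0.256 to 1.32 and from 0.178 to 1.15. Both are arms of 1 hairpin, miR-142a, and miR-223-3p and miR-150-5p did not pass. Of the erythrocyte miRNAs, miR-144-3p was lower in both male groups, with deposited folds of 0.303 and 0.265, and miR-486a-5p was higher in HCD-RD males, at 1.68, while miR-451a did not pass. Of the neural miRNAs, miR-137-3p was lower in HCD-RD males, at 0.541, and miR-7a-5p in HCD-RD females, at 0.439, and no other marker miRNA passed in any comparison. The part of these cell types in the piRNA folds was not tested. Library names carry order numbers, and some numbers of RD-RD libraries occur again in other groups, namely 2 in HCD-HCD males, 1 in RD-HCD males, 2 in HCD-HCD females and 1 in HCD-RD females. The libraries were therefore numbered in more than 1 set, the labels do not say what a set is, and set and diet cannot be told apart here. In HCD-RD males and RD-HCD females 0 numbers of RD-RD libraries occur again, and whether these groups share a set with RD-RD is unknown.

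In males, both groups born to HCD dams held piRNAs that differed from RD-RD, in both directions. In HCD-HCD males, 8 of the 89 piRNA entries with a p passed the test at a Benjamini-Hochberg adjusted DESeq2 p under 0.05, with 4 higher and 4 lower. That is 8.99% of the piRNA entries with a p, beside 18.1% of all 1515 entries tested in that comparison. In HCD-RD males, 7 of 89 piRNA entries passed, 4 higher and 3 lower, which is 7.87% beside 17.6% of all entries. By direction, 5.41% of all entries were called higher and 12.7% lower in HCD-HCD males, and 6.14% higher and 11.4% lower in HCD-RD males. In RD-HCD males, which ate HCD themselves but were born to RD dams, 0 of 89 piRNA entries passed, beside 1.39% of all entries. Under the stricter Benjamini-Yekutieli adjustment 1 piRNA entry passed in HCD-HCD and 2 in HCD-RD males, and under Holm adjustment 0 in each. The share of all entries that passed under these adjustments is not given here. Without adjustment, the DESeq2 p was under 0.05 for 18, 17 and 5 piRNA entries in HCD-HCD, HCD-RD and RD-HCD males. That is 20.2%, 19.1% and 5.62% of those with a p, beside 31.7%, 31.4% and 12.1% of all entries. These 3 comparisons set each group against the same 4 RD-RD libraries and not against each other, so a call in one group and none in another does not show that the groups differ.

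In females, no piRNA entry passed in any of the 3 comparisons. With Benjamini-Hochberg adjusted DESeq2 p-values, 0 of 88 passed in HCD-HCD, 0 of 82 in HCD-RD and 0 of 88 in RD-HCD females. Among all entries, 0.0631% were called in HCD-HCD females, 1.59% in HCD-RD females and 0% in RD-HCD females. The DESeq2 p was under 0.05 before adjustment for 2, 12 and 6 piRNA entries. That is 2.27%, 14.6% and 6.82% of those with a p, beside 5.43%, 11.7% and 1.32% of all entries. In RD-HCD females, all 6 of the piRNA entries at that p had folds below 1, beside 1.01% of all entries, and they make up 6 of the 21 entries of any kind at that p. Of the 6, 5 were loci of the single name piR_000691.

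Across the 6 comparisons, 11 piRNA entries passed at least once, 2 of them among the 16 short entries and 9 among the 87 longer ones. The share of all entries that passed at least once was not counted, so these counts are a description only. Counted by name, the 8 calls in HCD-HCD males came from 7 names and the 7 calls in HCD-RD males from 5. For 9 of the 11, no remark stood beside a fold that passed. The errors below are 95% intervals implied by the deposited fold and p together, and none is given for a fold so close to 1 that its log2 is under 0.1 in size.

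**Figure D2:**
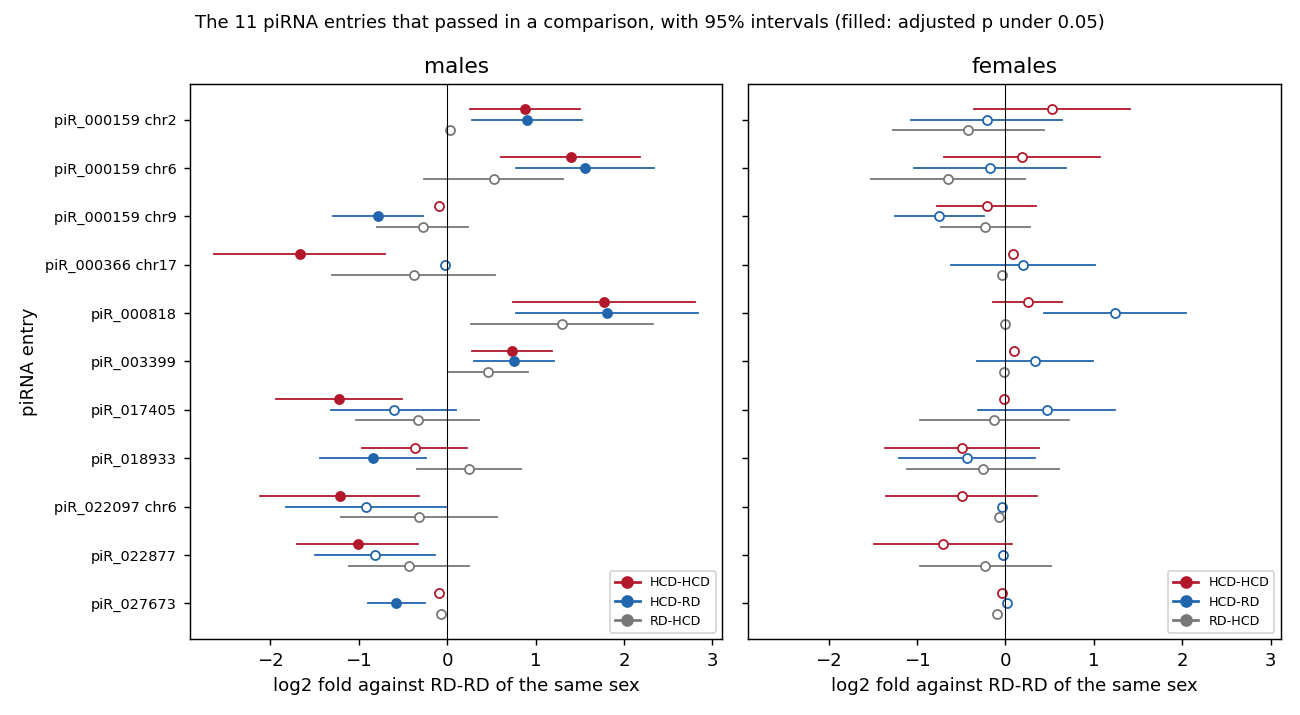
Log2 fold against RD-RD of the same sex (horizontal axis) of the 11 piRNA entries that passed in any comparison, for males (left) and females (right). Points are deposited folds, lines their implied 95% intervals, and filled points have a Benjamini-Hochberg adjusted p under 0.05. Filled points are in the HCD-HCD and HCD-RD male groups only, and points without a line have a log2 fold under 0.1 in size.

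Among the entries without a remark, the highest fold that passed was that of piR_000159, a 28-nt name with 3 loci, none of which had a remark in any comparison. At chr6:87962871-87962898 (minus strand) it was 2.63-fold higher in HCD-HCD males (95% interval 1.53 to 4.53; DESeq2 Benjamini-Hochberg adjusted p = 0.006) in the authors' deposited table. In HCD-RD males the same locus was 2.95-fold higher (1.71 to 5.08; DESeq2 adjusted p = 0.00174). Its fold was 1.44 (0.835 to 2.48) in RD-HCD males, and 1.14, 0.885 and 0.637 in HCD-HCD, HCD-RD and RD-HCD females, none of which passed. The locus at chr2:73668844-73668871 (plus strand) was 1.84-fold (1.19 to 2.84) higher in HCD-HCD and 1.87-fold (1.21 to 2.88) higher in HCD-RD males, with adjusted DESeq2 p-values of 0.0365 and 0.0327. Its deposited fold in RD-HCD males was 1.02.

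The third locus of the same name, chr9:118523651-118523678 (minus strand), went the other way. In the authors' deposited table it was lower in HCD-RD males, with a fold of 0.581 (0.409 to 0.825) and a Benjamini-Hochberg adjusted DESeq2 p of 0.02. In HCD-RD females its fold was 0.595 (0.419 to 0.845) at an unadjusted DESeq2 p of 0.00369, which did not pass after adjustment (adjusted p = 0.106). In HCD-HCD males, where the other loci of the name were higher, this locus stood at 0.935. Entries under 1 piRNA name thus passed in opposite directions in the same males, so the name alone does not fix a direction here. How the authors assigned reads shared by such loci is not given, and its part in the opposite folds was not tested.

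Of the other increases, piR_003399 at chr5:108144856-108144884 (plus strand, 29 nt) had no remark in any comparison and the narrowest interval of the 4 entries that rose. It was 1.66-fold (1.21 to 2.27) higher in HCD-HCD males and 1.69-fold (1.23 to 2.32) higher in HCD-RD males, with Benjamini-Hochberg adjusted DESeq2 p-values of 0.0137 and 0.011. Its deposited fold in RD-HCD males was 1.38 (1.01 to 1.89), with an unadjusted DESeq2 p of 0.0444 that did not pass after adjustment (adjusted p = 0.402). HCD-HCD, HCD-RD and RD-HCD females had folds of 1.07, 1.26 and 0.99.

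The highest fold of any piRNA entry belonged to piR_000818 at chr17:39451051-39451078 (plus strand, 28 nt), at a low level. It was 3.42-fold (1.68 to 6.98) higher in HCD-HCD males and 3.5-fold (1.71 to 7.14) higher in HCD-RD males, with Benjamini-Hochberg adjusted DESeq2 p-values of 0.00853 and 0.00655. Both folds carry remark B in the authors' deposited table, a mean below 10 UMIs in either group. The fold was 2.46 in RD-HCD males (DESeq2 adjusted p = 0.292) and 2.36 in HCD-RD females (DESeq2 adjusted p = 0.0859), also under remark B. In HCD-HCD females it was 1.19, and RD-HCD and RD-RD females had a count of 0.

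Among the decreases of HCD-HCD males, the entry with the smallest p was piR_000366 at chr17:25602713-25602739 (plus strand, 27 nt), with a fold of 0.314 (0.161 to 0.615; DESeq2 Benjamini-Hochberg adjusted p = 0.00853). It carried remark A, which the file headers describe as a fold that is at least as large in truth. Its deposited fold was 0.98 in HCD-RD males against 0.769 in RD-HCD males, and its female folds, all under remark B, ran from 0.971 to 1.15. The second locus of piR_000366, at chr6:86369552-86369578, had a fold of 0.621 (0.379 to 1.02) in HCD-HCD males, which did not pass.

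A partner name, piR_022097 (32 nt), overlaps piR_000366 by 7 bases at both places, ahead of it on the plus strand. At chr6:86369527-86369558 it was lower in HCD-HCD males, with a deposited fold of 0.431 (0.231 to 0.805; DESeq2 Benjamini-Hochberg adjusted p = 0.0461). In HCD-RD males its fold was 0.529 (0.284 to 0.987), which did not pass (DESeq2 adjusted p = 0.149). At chr17:25602688-25602719 the folds of piR_022097 were 0.735 in HCD-HCD and 0.769 in HCD-RD males, neither of which passed. Both names at both places had deposited folds below 1 in HCD-HCD males, and 1 locus of each name passed.

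Another 2 entries were lower in HCD-HCD males without a remark in any comparison. The deposited fold of piR_017405 (chr11:65550994-65551015, minus strand, 22 nt) was 0.429 (0.262 to 0.703; DESeq2 Benjamini-Hochberg adjusted p = 0.00872). In HCD-RD males it was 0.658 (0.403 to 1.07) and in HCD-RD females 1.38 (0.806 to 2.36), neither of which passed. For piR_022877 (chr16:23024323-23024351, plus strand, 29 nt) the fold was 0.495 (0.309 to 0.792; DESeq2 adjusted p = 0.0247) in HCD-HCD males. Its fold of 0.568 (0.355 to 0.91) in HCD-RD males and 0.613 (0.358 to 1.05) in HCD-HCD females did not pass.

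In HCD-RD males, 2 further entries were lower. The deposited fold of piR_027673 (chr11:106317081-106317102, plus strand, 22 nt) was 0.671 (0.536 to 0.841; DESeq2 Benjamini-Hochberg adjusted p = 0.00606), and its folds in the other 5 comparisons lay between 0.935 and 1.01. A second name on the same strand within the same 75 bases, piR_000580 (chr11:106317126-106317155, 30 nt), had a fold of 1.17 (0.863 to 1.59) in these males. For piR_018933 (chr14:18428734-18428763, minus strand, 30 nt) the fold was 0.559 (0.368 to 0.848; DESeq2 adjusted p = 0.0395) in HCD-RD males, beside 0.775 in HCD-HCD and 1.19 in RD-HCD males.

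The piRNA name with the most entries was piR_000691 (26 nt), with 23 loci, of which 21 lie on the minus strand of chromosome 8 in a tandem row from position 126424875 to 126509751. Neighbours in this row are 1673 to 8524 bases apart. RefSeq's GRCm38 annotation has 44 genes of 5S ribosomal RNA on chromosome 8, and 0 of the 21 loci overlap one at the coordinates in the names. After 1 common shift of all 21 loci, 19 start within 2 bases of a 5S gene, so the coordinates are of another build than GRCm38 and the row has the spacing of the 5S genes. Whether the reads under this name come from 5S ribosomal RNA was not tested.

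No locus of piR_000691 passed in any comparison. At 12 of its loci there was no remark in any comparison, and in the authors' deposited tables the folds of these 12 were below 1 at 12, 11 and 12 loci in HCD-HCD, HCD-RD and RD-HCD males and at all 12 in each female group. Their median fold was 0.571 in HCD-HCD males, with a range of 0.448 to 0.794. It was 0.719 in HCD-RD males (0.613 to 1.04) and 0.755 in RD-HCD males (0.588 to 0.833). For HCD-HCD females the median fold was 0.59 (0.543 to 0.82), for HCD-RD females 0.619 (0.556 to 0.926), and for RD-HCD females 0.547 (0.437 to 0.69). The unadjusted DESeq2 p was under 0.05 at 1, 0 and 0 of the 12 loci in the male groups. In females it was under 0.05 at 1 of 11 loci with a p in HCD-HCD, 1 of 12 in HCD-RD and 5 of 11 in RD-HCD, and the locus at chr8:126494409-126494434 has no p in the first and the last of these. Because the loci can share reads and the 3 comparisons of a sex share their RD-RD libraries, the common direction is not repeated evidence of a decrease.

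**Figure D3:**
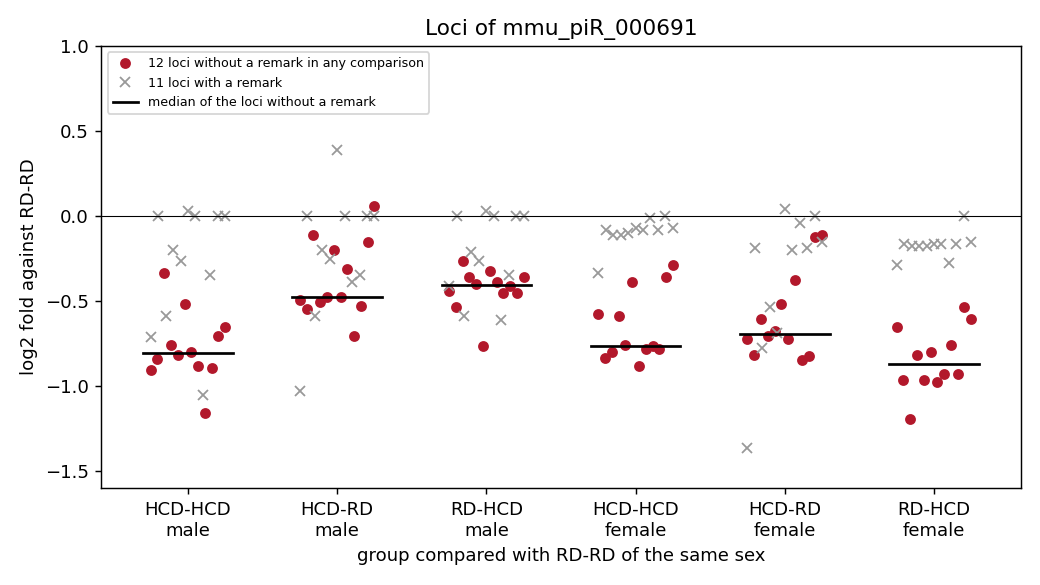
Log2 fold against RD-RD of the same sex (vertical axis) of the 23 loci of piR_000691 in the 6 comparisons. Filled points are the 12 loci without a remark in any comparison, crosses the 11 loci with a remark, and the black line is the median of the 12. The filled points lie below 0 except for 1 in HCD-RD males, and none passed the test.

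The loci of piR_000691 weigh on any summary over entries. The median log2 fold of the piRNA entries without a remark was -0.29 for HCD-HCD males, -0.11 for HCD-RD males and -0.06 for RD-HCD males, beside 0.04, 0.07 and -0.01 for all entries without a remark. For HCD-HCD, HCD-RD and RD-HCD females the values were -0.24, -0.07 and -0.11, beside 0, 0 and -0.01. With 1 value per piRNA name, the median of its loci, the medians became -0.12, 0.14 and 0.03 in the male groups and -0.04, 0.06 and -0.07 in the female groups. The sign thus changed for HCD-RD and RD-HCD males and HCD-RD females, and the medians over entries describe 1 repeated name as much as a class of RNA. In RD-HCD females, 28 of 37 names without a remark had a fold below 1 and 9 above it, at a median fold of 0.952. Among all 902 entries without a remark in that comparison, counted by entry, 468 had a fold below 1 and 401 above it, at a median of 0.99.

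**Figure D4:**
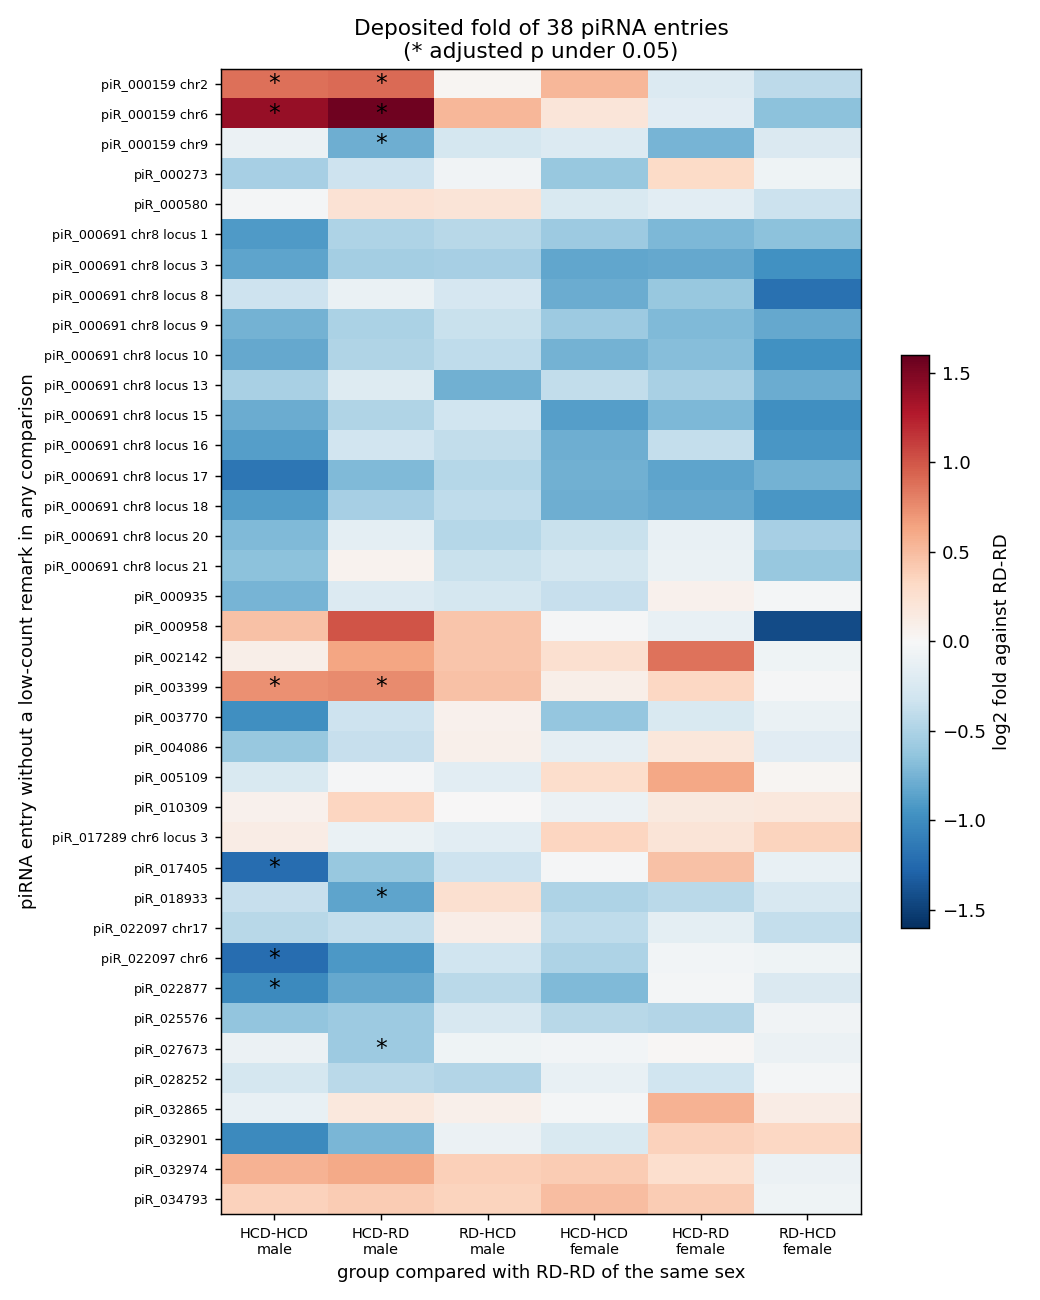
Deposited log2 fold against RD-RD (colour, red higher and blue lower) of the 38 piRNA entries without a remark in any comparison (rows) in the 6 comparisons (columns). A star marks a Benjamini-Hochberg adjusted p under 0.05. Stars are in the first pair of columns, HCD-HCD and HCD-RD males, and the block of 12 piR_000691 rows is blue in nearly every column.

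A dense group of names was a stretch of 5204 bases on the plus strand of chromosome 17, with 8 names that each have 1 entry. It begins with piR_000818, described above, which shares 27 of its 28 bases with piR_000310 (32 nt), so that reads of these names may be hard to tell apart. The fold of piR_000310 in HCD-RD males was 1.37 (0.685 to 2.74) in the authors' deposited table, beside 3.5 for piR_000818. Further along, piR_000619 (chr17:39454691-39454717, 27 nt) had deposited folds of 1.6, 1.92 and 1.5 in HCD-HCD, HCD-RD and RD-HCD males, and none passed (smallest DESeq2 Benjamini-Hochberg adjusted p = 0.0887).

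At the far end of this stretch, piR_000958 (chr17:39456228-39456254, 27 nt) had no remark in any comparison. Its deposited fold of 0.372 (0.215 to 0.643) in RD-HCD females had the smallest unadjusted DESeq2 p of any female piRNA entry, 0.000407, and did not pass after Benjamini-Hochberg adjustment (adjusted p = 0.506). In the other groups the folds were 1.38 for HCD-HCD males, 2.01 for HCD-RD males and 1.36 for RD-HCD males, and 0.99 and 0.917 in HCD-HCD and HCD-RD females. The other 4 names of the stretch had remark B or C in every comparison.

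On the X chromosome, a pair of 22-nt names lies on the minus strand within 59 bases. The deposited fold of piR_025576 (chrX:6405415-6405436) was 0.645 (0.451 to 0.922) in HCD-HCD and 0.671 (0.469 to 0.96) in HCD-RD males. Its neighbour piR_028975 (chrX:6405378-6405399) had folds of 1.33 (0.763 to 2.32) and 1.76 (1.02 to 3.02) in the same groups. None of the 4 folds passed, with Benjamini-Hochberg adjusted DESeq2 p-values of 0.0722, 0.11, 0.515 and 0.139, so the opposite sides of 1 are a description only.

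Of the piRNA entries that passed nowhere, several without a remark came near the threshold in males. In HCD-HCD males, piR_000935 (chr6:47717737-47717766) had a deposited fold of 0.595 (0.397 to 0.893; DESeq2 Benjamini-Hochberg adjusted p = 0.0589). The short piR_032901 (chr4:79475152-79475175, 24 nt) had 0.495 (0.28 to 0.874; DESeq2 adjusted p = 0.069), and piR_003770 (chr15:82977530-82977560) had 0.505 (0.278 to 0.917; DESeq2 adjusted p = 0.0944). In HCD-RD males, piR_032974 (chr4:130021751-130021778) had a fold of 1.52 (1.09 to 2.13; DESeq2 adjusted p = 0.0715), beside 1.47 in HCD-HCD and 1.3 in RD-HCD males.

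In females the smallest adjusted p-values were in HCD-RD. There the piR_000691 locus at chr11:74136081-74136106 had a deposited fold of 0.389 under remark A (DESeq2 Benjamini-Hochberg adjusted p = 0.0576). Next came piR_000818 and the chromosome 9 locus of piR_000159, with DESeq2 adjusted p-values of 0.0859 and 0.106 as given above. Among further entries without a remark, piR_002142 (chr11:69166653-69166679, 27 nt) had 1.83 (1.13 to 2.95; DESeq2 adjusted p = 0.208), and the 23-nt piR_032865 (chr2:116876592-116876614) had 1.47 (1.04 to 2.09; DESeq2 adjusted p = 0.321). The table of HCD-RD females was normalised apart from that of the other female groups, and no level was set across both.

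Males and females were compared directly by the difference of their log2 folds, with a normal test on the implied standard errors and Benjamini-Hochberg adjustment over every entry that could be tested, miRNAs included. No piRNA entry among those tested passed after adjustment. The counts were 0 of 48 for HCD-HCD, 0 of 58 for HCD-RD and 0 of 36 for RD-HCD, beside 0%, 1.52% and 0% of all entries. At an unadjusted p under 0.05 the same test gave 3 of 48, 4 of 58 and 2 of 36 piRNA entries, beside 8.04%, 17.1% and 11.8% of all entries tested. An entry could be tested only where both log2 folds were at least 0.1 in size, since a smaller one has no implied error, so entries flat in one sex were left out. Of the 15 male calls 11 were tested and 4 were not. The 4 were piR_003399, piR_017405 and piR_000366 on chromosome 17 in HCD-HCD and piR_027673 in HCD-RD, with deposited female folds of 1.07, 0.99, 1.06 and 1.01. For these whether males and females differ was not tested.

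The smallest p for HCD-RD was that of piR_000159 on chromosome 6, 2.95-fold in males and 0.885 in females. The male minus female difference in log2 fold was 1.74 (95% interval 0.58 to 2.90), with a Benjamini-Hochberg adjusted p of 0.089. In HCD-HCD the smallest p was that of piR_000818, for which no difference is given, because another remark puts its RD-RD females at 0. In RD-HCD, piR_000958 had a difference of 1.87 (0.68 to 3.06; adjusted p = 0.249), from 1.36 in males and 0.372 in females.

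**Figure D5:**
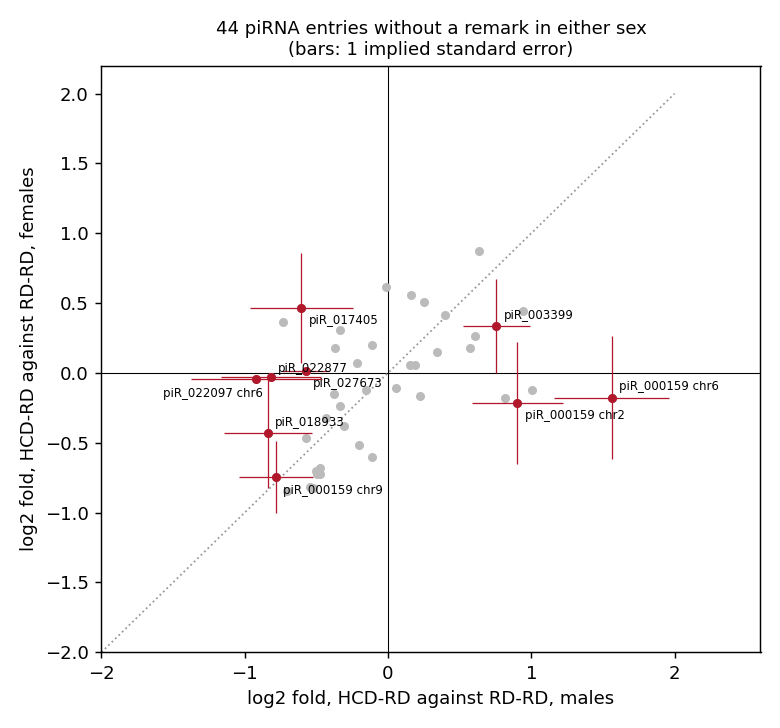
Log2 fold of HCD-RD against RD-RD in males (horizontal axis) and females (vertical axis) for the 44 piRNA entries without a remark in either sex. Red points with names passed in any comparison and have bars of 1 implied standard error where the log2 fold is at least 0.1 in size, and the dotted line marks equal folds. The chromosome 6 locus of piR_000159 lies farthest right, at 1.56 in males and -0.18 in females.

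A further deposited list sets HCD-HCD directly against RD-HCD males, which both ate HCD and differ in the dam's diet. Its header gives a fold difference of 2 and a p-value of 0.05. The authors' deposited table lists 47 entries, as many as 2.73% of a full table of entries, and 0 of them are piRNAs. At so small a share 0 piRNAs is a description only, and piRNAs short of those limits are not listed.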

How the data were processed

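The fold and p-values came from 3 tables that cover 6 comparisons of 25 libraries. Per the file headers, the fold is the ratio of group means after DESeq2 normalisation, and the p-value the unadjusted DESeq2 p, both deposited by the authors. Some folds of sparse entries were not such plain ratios, as described under the other observations. Whether folds without a remark were plain ratios was not tested, and the implied intervals rest on the deposited folds as given. The signed score called fold regulation, deposited by the authors, is the fold, or minus its inverse below 1, and gave the folds below 1 at higher precision. The sources used here do not give the version of DESeq2, the aligner or the counting rule of the authors. The submitters' processing notes list the build mm10. Depth per library is unknown. Titles and workbook number the 3 RD-HCD male libraries differently under 1 group code, and 18 of 43 listed libraries were not analysed here.

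Benjamini-Hochberg adjustment ran over all entries with a p in a comparison, and a call was an adjusted p under 0.05, in Python 3.11.15 with scipy 1.17.1. The implied standard error is the size of the log2 fold over the normal score of its p, given for a log2 fold of at least 0.1 in size. A test on counts, the first choice of the design, could not be used on tables of this kind. The calling and the difference test were tried on simulated log2 folds with independent normal errors of known size. The simulation had no counts, no shared RD-RD libraries and no loci that share reads. Named were 46 piRNA entries: those called anywhere, those without a remark in all 6 comparisons, up to 4 per comparison and direction with the smallest unadjusted p under 0.05, and those in the deposited list. The X-chromosome pair, piR_000310, piR_000619 and piR_000366 on chromosome 6 were described for their position where the rule does not name them. Members and lists were chosen with earlier results of these data known. Alternatives were other adjustments, fold thresholds, centred folds, an unadjusted p, and entries without a remark. The value per name was chosen after seeing the data.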

Additional observations from a re-analysis of the deposited data

How the results depend on the processing

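The count of piRNA calls depended most on the adjustment. The counts below are of piRNA entries alone, without the share of all entries under each setting. They therefore do not show whether piRNAs depended on a setting more than other entries did. Against 8 in HCD-HCD and 7 in HCD-RD males, Benjamini-Yekutieli adjustment left 1 and 2, and Holm adjustment left 0 and 0. A fold of at least 2 left 2 in HCD-RD males and 6 in HCD-HCD males. Without entries that carry a remark, 6 and 6 passed. In HCD-RD females, the setting with folds centred on the median gave 1 call against 0. The shift there was 0, so the call came from adjusting over fewer entries, without those whose log2 is under 0.1 in size. An unadjusted DESeq2 p under 0.01 gave 3 in the same females. They were piR_000818 under remark B, the chromosome 11 locus of piR_000691 under remark A and the chromosome 9 locus of piR_000159. The same unadjusted threshold gave 2 in RD-HCD females, piR_000958 and a chromosome 8 locus of piR_000691. It also gave 1 difference between the sexes for each of the 3 diets. Centring shifted log2 folds by at most 0.07 and turned the direction of 2 of 276 folds of named entries, neither of them called and both under 0.06 in size. It gave no p for 45 of the 270 named folds that have one, because their log2 is under 0.1 in size. No paired analysis was possible because no value per library was used here, only folds with their p-values. Leaving out a library was not run for the same reason, so whether 1 library decides a call is not known from these tables.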

Other observations

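Some folds of sparse piRNA entries were not plain ratios of group means. With remark C, a count of 0 in both groups, the authors' deposited tables list folds other than 1 for 5, 3 and 2 piRNA entries in HCD-HCD, HCD-RD and RD-HCD males and for 10 in HCD-HCD females. In RD-HCD females, piR_032975 had a fold of 1.13 at an unadjusted DESeq2 p of 0.389 under remark A, although the comparison with HCD-HCD females lists RD-RD at 0. The name piR_017289 (31 nt, 8 loci) had remark A at 7 loci in RD-HCD females and remark B at 7 in HCD-HCD females, and its locus without a remark had deposited folds of 1.27, 1.15 and 1.28 in HCD-HCD, HCD-RD and RD-HCD females, none of which passed.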
